A study of Mus musculus with 6 samples.

Results

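The 9 genes described here write, copy and erase DNA methylation: Dnmt1 and Uhrf1, which maintain it, Dnmt3a, Dnmt3b and Dnmt3l, which lay it down, and Tet1, Tet2, Tet3 and Tdg, which remove it. They were taken by symbol from a table of 25,899 genes, and all are described whatever their values. The list was drawn up with earlier results of these data known. All 9 passed the filter on low counts that 13,869 genes passed. Newly made RNA was measured in E14tg2a mouse embryonic stem cells of 129SV background that stably express a cRAF-ErT2 cassette, a kinase fusion that switches on ERK signalling when 4-hydroxytamoxifen (4OHT) is added. The 3 treated libraries had 250 nM 4OHT for 2 h, and the 3 untreated libraries had none. All 6 carried the cassette and were grown in serum with LIF and 2 µM CHIR99021, a GSK3 inhibitor. For 24 h before treatment CHIR99021 was replaced by PD173074, which inhibits FGF receptors, at 250 nM. Ethynyl uridine at 5 mM labelled RNA for the final 15 min. Each group has 1 library from each of the clones a, b and c. Neither solvent controls nor treated cells lacking the cassette are among the 6 libraries, so ERK activation and 4OHT itself cannot be told apart.

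Methylation of cytosine in CG pairs is copied at each cell division. UHRF1 binds DNA that carries methyl groups on 1 strand and brings in DNMT1, which methylates the other strand. DNMT3A and DNMT3B methylate unmarked DNA, and DNMT3L, which has no catalytic activity, assists them. TET enzymes oxidise the methyl group, and the glycosylase TDG cuts out the further oxidised bases for repair. Embryonic stem cells kept with an inhibitor of the ERK pathway are known for low levels of DNA methylation. Within this family TET1 and TET2 are known as the main TET enzymes of embryonic stem cells, and TET3 as that of the egg and zygote.

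Total counts were 7295334 to 9431819 in the 4OHT libraries and 9745747 to 12168380 in the untreated libraries. A count of 0 would allow up to 0.411 CPM, and every one of the 9 genes lay far above that, with at least 279 counts in each library. CPM are counts scaled to a common library size by TMM, and errors are SD over 3 libraries for CPM and SE for log2 fold changes. The libraries of clone c stood somewhat apart: chi-square per gene was 5.38 to 11.3 for pairs with clone c, against 2.29 and 2.44 for clones a and b. Of the embryonic stem cell markers 6 of 6 were tested, with 1648 to 1927 summed CPM after 4OHT and 1720 to 1901 untreated. Their sum hides opposite changes: Zfp42 and Pou5f1 rose, Nanog fell 3.16-fold and Sall4 2.22-fold, and Sox2 and Utf1 were not called. Fibroblast markers moved with the treatment: 4 of 8 were tested, with 64.2 to 101 summed CPM after 4OHT against 10.2 to 11.4 untreated, most of it Vim. Vim, Col1a1 and Twist1 were called higher and Pdgfrb lower (-0.91). S100a4 had no count in any library and Col3a1 had none after 4OHT. Primitive endoderm markers gave 8.28 to 10.8 summed CPM after 4OHT and 6.88 to 9.69 untreated, with 3 of 6 tested and none called. The part of these markers in the results below was not tested, and in such bulk libraries fewer cells of a type and less RNA per cell cannot be told apart.

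After 2 h of 4OHT, 4 of the 9 genes rose and 3 fell, and they did not move as 1 group. Dnmt3a rose 3.85-fold, Tet3 1.86-fold, Uhrf1 1.41-fold and Dnmt1 1.40-fold, while Tet1 fell 3.59-fold, Dnmt3b 1.95-fold and Dnmt3l 1.43-fold. Tet2 and Tdg did not pass the test (edgeR quasi-likelihood test, Benjamini-Hochberg adjusted p below 0.05 over all genes). Across all genes tested, 28.5% were higher and 28.6% lower, 57.1% in all, against which the 7 called genes of 9 are to be read. Sizes of at least a doubling or halving were reached by Dnmt3a and Tet1, against 16.4% of all genes. The same 7 genes had 4OHT libraries that lay wholly above or wholly below the untreated ones, as 63.3% of all genes did. Scaling by library size or to the 13 loci with the highest counts shifts the median of all genes by -0.20 and -0.31 on the log2 scale, so small changes below are read with that in mind.

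**Figure D1:**
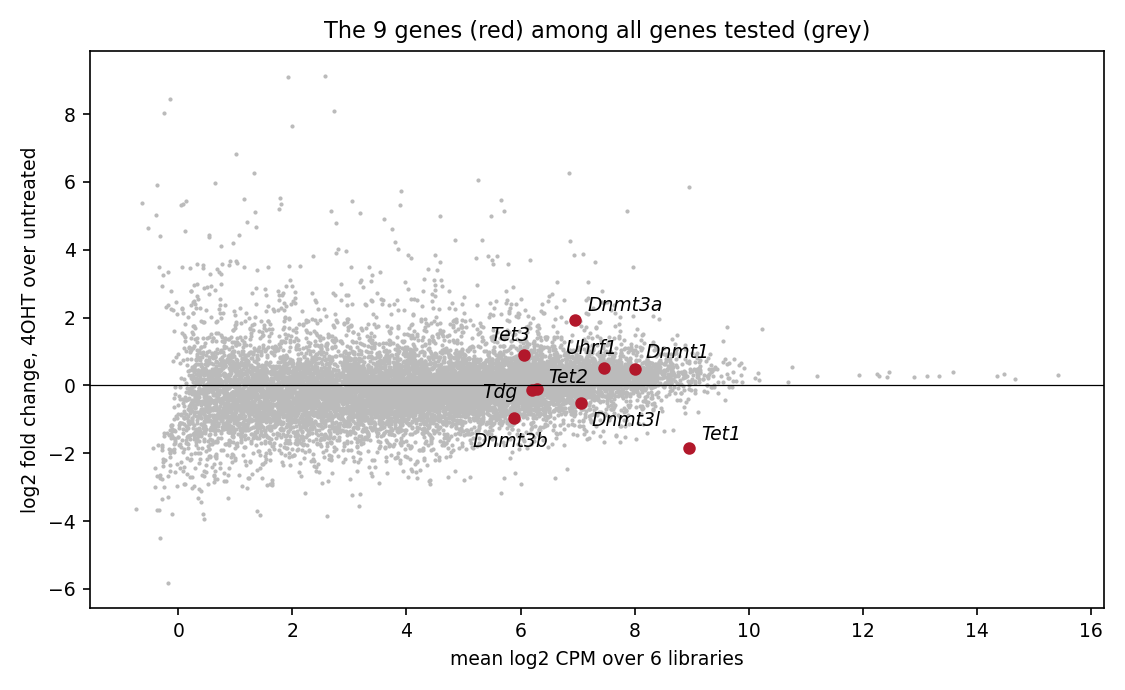
Each point is 1 gene tested, with its mean log2 CPM over 6 libraries on the x axis and its log2 fold change (4OHT over untreated) on the y axis; the 9 genes are red. Dnmt3a lies above most genes at 1.94, and Tet1 at -1.85 lies low among genes with a high mean.

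The 2 maintenance genes rose by similar amounts. Dnmt1, the methyltransferase that copies methylation (chr9:20907209-20959888, minus strand, GRCm38), had 292, 294 and 335 CPM in 4OHT-treated clones a, b and c, against 213, 211 and 232 CPM in the untreated clones. The groups did not overlap, and clone c was highest in both. Its log2 fold change was 0.49 ± 0.07 (edgeR adjusted p = 0.00029). Uhrf1, the reader that guides DNMT1 to newly copied DNA (chr17:56303321-56323486, plus strand), had 210.2, 194 and 224 CPM after 4OHT, against 141, 139.9 and 164 CPM untreated, again with no overlap and clone c highest in both groups. Its log2 fold change was 0.50 ± 0.08 (edgeR adjusted p = 0.00047). Both were smaller by library size (0.29 for Dnmt1 and 0.30 for Uhrf1) and were not called when libraries were scaled to the 13 high-count loci (0.18 with adjusted p = 0.39, and 0.20 with adjusted p = 0.36).

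The ratio of Uhrf1 to Dnmt1 counts within a library does not depend on scaling. It was 0.720, 0.661 and 0.669 in 4OHT-treated clones a, b and c and 0.660, 0.664 and 0.707 in the untreated clones, which overlap. The mean log2 ratio differed by 0.01 between groups (exact two-sided permutation test, p = 0.6, n = 3 each), less than the SD of 0.07 after 4OHT and 0.05 untreated.

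The start regions of this pair are shown because both hold a match to the letters TTTNGCGC, a motif of E2F factors that drive genes of DNA replication. Windows of 300 bases, 250 before and 50 after a start site, came from RefSeq on GRCm38.p6, which gives 16 windows for the 9 genes. Both strands were searched, and 1.38% of all 32,851 windows hold the motif. The motif contains CG, and the 2 windows shown have 33 CG pairs each, against a median of 7 over all windows. The share among windows as rich in CG was not computed. Capitals mark the matches, at -219 and 33 from the start for Dnmt1 (chr9:20952574-20952873, minus strand) and at -185 for Uhrf1 (chr17:56304063-56304362, plus strand), in the 1 of 3 and 1 of 2 windows of these genes that have one.
Dnmt1: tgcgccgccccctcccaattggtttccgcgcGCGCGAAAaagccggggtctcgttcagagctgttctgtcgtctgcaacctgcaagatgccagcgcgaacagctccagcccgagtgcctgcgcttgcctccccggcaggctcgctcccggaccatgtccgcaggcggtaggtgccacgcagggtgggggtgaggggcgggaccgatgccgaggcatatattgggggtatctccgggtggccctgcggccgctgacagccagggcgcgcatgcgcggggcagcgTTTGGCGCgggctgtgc
Uhrf1: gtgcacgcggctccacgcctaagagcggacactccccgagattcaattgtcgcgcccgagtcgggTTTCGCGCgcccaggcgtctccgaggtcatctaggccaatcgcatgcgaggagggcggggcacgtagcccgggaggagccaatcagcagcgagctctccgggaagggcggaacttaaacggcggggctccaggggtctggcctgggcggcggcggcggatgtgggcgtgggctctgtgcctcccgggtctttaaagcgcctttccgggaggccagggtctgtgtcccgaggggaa
No other gene of the 9 has this motif in its windows. A match is a string of letters and says nothing of binding. Both windows shown lie inside their annotated genes, and which start site is used in these cells was not tested.

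The de novo genes split. Dnmt3a rose, and its close relative Dnmt3b and their cofactor Dnmt3l fell. Dnmt3a (chr12:3806007-3914443, plus strand), a methyltransferase for unmarked DNA, had 238, 215 and 274 CPM in 4OHT-treated clones a, b and c, against 64.6, 60.6 and 63.6 CPM in the untreated clones. The untreated libraries were nearly alike, and the lowest treated one was over 3 times the highest of them. The log2 fold change was 1.94 ± 0.09 (edgeR adjusted p = 1.1e-07), and 2.17% of genes tested had a higher one. In embryonic stem cells a shorter protein from an internal start of this gene is known as the main form, and counts per gene do not separate the forms. The span of Dnmt3a overlaps that of its antisense gene Dnmt3aos over 2952 bases, and exons of both genes overlap there. Reads from such exons cannot be separated if strand is not used.

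Dnmt3b (chr2:153649450-153687730, plus strand), the other de novo methyltransferase, had 45.7, 40.3 and 40.7 CPM after 4OHT, against 83.6, 82.7 and 81.6 CPM untreated. The groups lay far apart, and the untreated libraries were nearly alike. Its log2 fold change was -0.97 ± 0.07 (edgeR adjusted p = 2.6e-06). The span of Dnmt3b overlaps that of its antisense gene Dnmt3bos over 837 bases, with no overlap of exons. Dnmt3l (chr10:78041947-78063622, plus strand), the inactive helper, had 124, 96.3 and 115 CPM after 4OHT, against 152, 148 and 179 CPM untreated. The groups did not overlap, although the gap between the highest treated and the lowest untreated library was smaller than the spread within either group. Its log2 fold change was -0.52 ± 0.10 (edgeR adjusted p = 0.0016). Exons of Dnmt3l overlap those of Aire on the opposite strand, whose reads cannot be separated where strand is not used, and Aire had a log2 fold change of -0.45 at a lower level (30.3 ± 2.07 CPM after 4OHT and 41.5 ± 4.06 CPM untreated).

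Within single libraries the balance of the 2 active de novo genes turned over. Dnmt3a had 5.20, 5.33 and 6.73 counts for each count of Dnmt3b in 4OHT-treated clones a, b and c, against 0.772, 0.733 and 0.779 in the untreated clones. The ratio was 7.51-fold higher after 4OHT, a difference of 2.91 in mean log2 ratio against an SD of 0.20 after 4OHT and 0.05 untreated. Dnmt3l moved the other way relative to Dnmt3a, with ratios of 0.519, 0.448 and 0.418 after 4OHT and 2.35, 2.44 and 2.81 untreated. Both ratios separated the groups completely, at p = 0.1 in an exact two-sided permutation test, the smallest that 3 libraries against 3 can give (0.125 adjusted over the 5 ratios computed). Since genes differ in length, such ratios describe a shift and not which gene is made more.

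**Figure D2:**
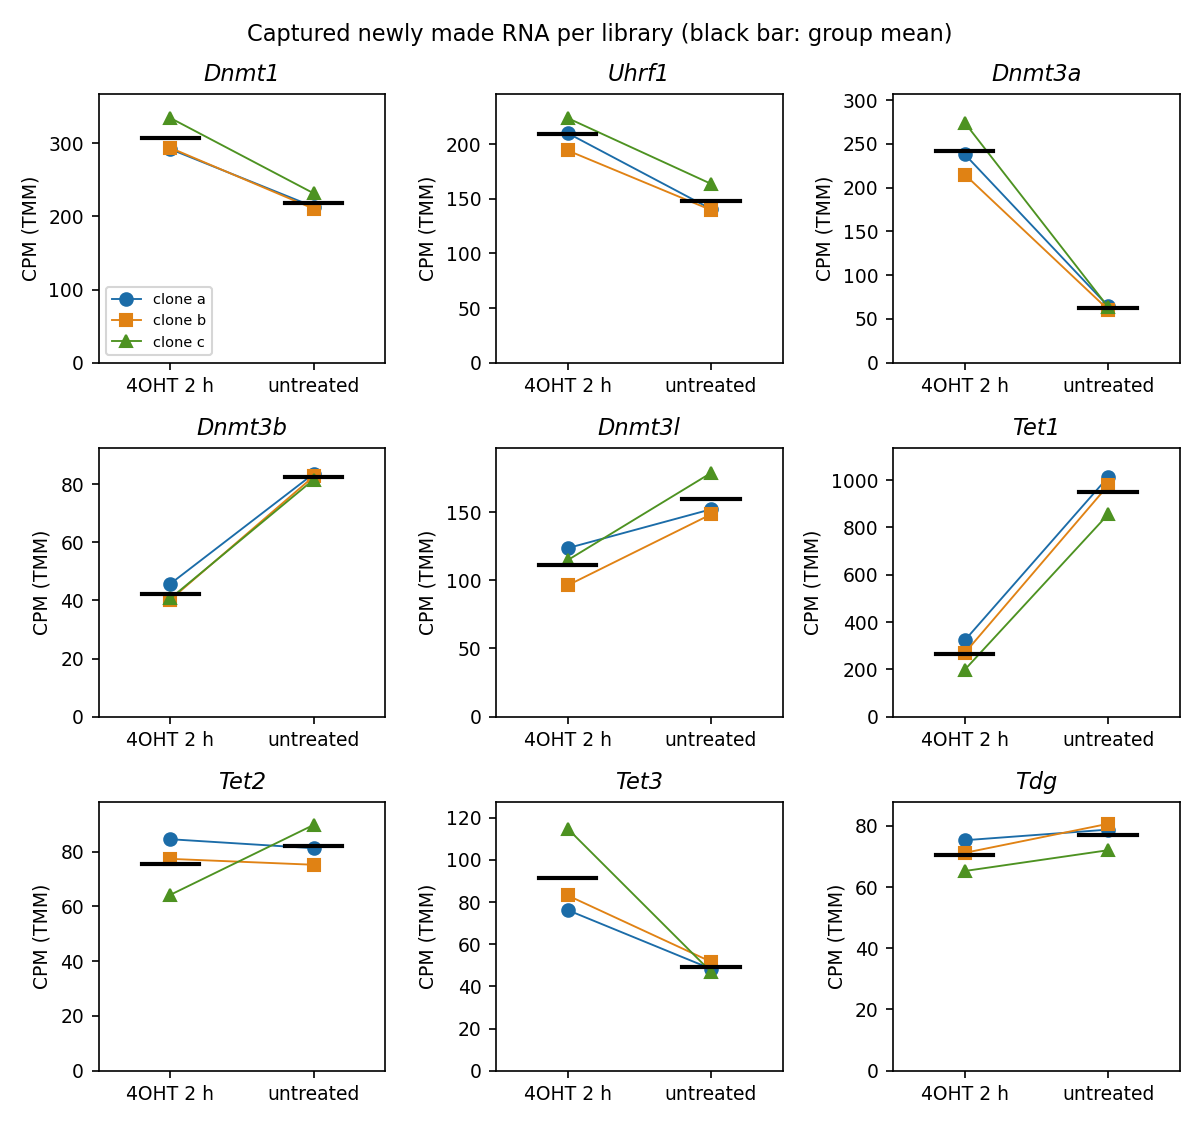
CPM (TMM-scaled) of each gene in the 6 libraries, 4OHT left and untreated right, with lines joining the libraries of a clone and black bars at group means. Dnmt3a and Tet3 slope down to the untreated side and Tet1 and Dnmt3b slope up, in all 3 clones.

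The start regions of Dnmt3a and Dnmt3b are shown because they are rich in CG pairs, the substrate of these enzymes, and hold the letters GCGNGGGCG, a motif of the EGR factors, whose gene Egr1 is an early target of ERK. The Dnmt3a window (chr12:3806910-3807209, plus strand) has 47 CG pairs and 1 match at -129, and the Dnmt3b window (chr2:153649199-153649498, plus strand) has 30 CG pairs and matches at -75 and -58, in capitals. The median of all windows is 7 CG pairs, and 5.55% of all windows hold this motif on either strand. The motif itself contains CG, and its share among windows as rich in CG was not computed.
Dnmt3a: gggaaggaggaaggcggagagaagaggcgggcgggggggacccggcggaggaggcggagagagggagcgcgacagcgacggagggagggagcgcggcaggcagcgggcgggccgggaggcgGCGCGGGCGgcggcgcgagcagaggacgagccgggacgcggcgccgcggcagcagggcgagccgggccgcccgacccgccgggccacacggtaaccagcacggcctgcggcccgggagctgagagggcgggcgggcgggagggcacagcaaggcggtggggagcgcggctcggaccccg
Dnmt3b: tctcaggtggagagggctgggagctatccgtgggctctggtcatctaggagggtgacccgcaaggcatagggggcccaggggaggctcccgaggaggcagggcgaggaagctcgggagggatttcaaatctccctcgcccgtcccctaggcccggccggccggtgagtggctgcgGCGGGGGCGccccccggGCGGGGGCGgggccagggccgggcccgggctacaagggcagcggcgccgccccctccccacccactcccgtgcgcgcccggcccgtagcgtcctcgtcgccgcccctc
The other 2 windows of Dnmt3a, the internal start among them, have no match, and the motif is present beside a gene that rose and a gene that fell. No window of the 9 genes holds CCGGAAG, an ETS motif found in 8.86% of all windows, or TGANTCA, the AP-1 motif found in 7.81%.

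The TET genes moved in 3 ways, with Tet1 falling, Tet3 rising and Tet2 not passing the test. Tet1 (chr10:62804570-62908996, minus strand), which oxidises methylated cytosine, had 323, 269 and 198 CPM in 4OHT-treated clones a, b and c, against 1012, 977 and 855 CPM in the untreated clones. The groups lay far apart, and clone c was lowest in both. The log2 fold change was -1.85 ± 0.15 (edgeR adjusted p = 4.4e-06), and 1.96% of genes tested had a lower one. Tet1 was also among the most strongly counted genes, by a mean log2 CPM that takes no account of gene length. A higher mean was found for 112 genes, of which 3 were called lower after 4OHT, against 28.6% of all genes tested. The lowest log2 fold change among the 112 was -0.78 for Macf1, a cytoskeletal linker. That comparison was made after the values were seen, with the cut placed at the level of Tet1 itself.

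Tet3 (chr6:83362373-83459084, minus strand), the TET enzyme known from the zygote, had 76.2, 83.2 and 115 CPM after 4OHT, against 48.3, 51.7 and 47.0 CPM untreated. The groups did not overlap, and the treated library of clone c stood above the other two. The log2 fold change was 0.89 ± 0.13 (edgeR adjusted p = 0.00028), and 0.64 ± 0.07 without clone c. The span of Tet3 overlaps that of B230319C09Rik on the opposite strand over 6568 bases, with no overlap of exons. Reads there cannot be separated if gene bodies were counted without strand. Tet2 (chr3:133463679-133545139, minus strand), which unlike its relatives lacks a CXXC DNA-binding domain of its own, had 84.5, 77.3 and 64.2 CPM after 4OHT, against 81.2, 75.2 and 89.7 CPM untreated. The groups overlapped, and clone c held both the lowest and the highest value. Its log2 fold change was -0.12 ± 0.10 (95% interval -0.35 to 0.11, edgeR adjusted p = 0.36), but -0.32 with an adjusted p of 0.019 by library size, and its adjusted p was 0.019 to 0.91 over all alternatives. Tet2 overlaps the antisense gene Gm42567 over 43 bases, and exons of both genes overlap there.

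Tdg (chr10:82629828-82650799, plus strand), which excises oxidised bases, had 75.3, 71.2 and 65.2 CPM after 4OHT, against 78.8, 80.7 and 72.0 CPM untreated. It was lower in each clone, and the groups overlapped. The log2 fold change was -0.13 ± 0.08 (95% interval -0.30 to 0.04, edgeR adjusted p = 0.18). With clone as a replicate block, which compares the paired libraries, the same -0.13 had an adjusted p of 0.046, and by library size it was -0.33 with an adjusted p of 0.0057; over all alternatives its adjusted p was 0.0057 to 0.51. An exon of Tdg overlaps Glt8d2 on the opposite strand, which had 311 counts over all 6 libraries.

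Within libraries, Tet2 and Tet3 both gained on Tet1. Tet3 had 0.236, 0.309 and 0.579 counts for each count of Tet1 in 4OHT-treated clones a, b and c, against 0.0477, 0.0529 and 0.0549 in the untreated clones. For Tet2 the ratios were 0.262, 0.287 and 0.324 after 4OHT, against 0.0802, 0.0769 and 0.105 untreated. Neither pair of groups overlapped (p = 0.1 for each, exact two-sided permutation test, the smallest possible, and 0.125 adjusted over the 5 ratios computed). The log2 ratio of Tet3 to Tet1 had an SD of 0.66 after 4OHT and 0.10 untreated. Tet2 itself did not pass the test, with a log2 fold change of -0.12 against -1.85 for Tet1. Without the treated library of clone c the log2 difference for Tet3 over Tet1 was 2.38, against 2.75 with it.

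A start region of Tet1 (chr10:62887275-62887574, minus strand) is shown because this gene had the largest fall. Its window holds 1 match to GCGNGGGCG, at -243 and in capitals, with 17 CG pairs. The window lies inside the annotated gene, which begins at 62908996 on the minus strand. Whether this start is used in these cells was not tested.
Tet1: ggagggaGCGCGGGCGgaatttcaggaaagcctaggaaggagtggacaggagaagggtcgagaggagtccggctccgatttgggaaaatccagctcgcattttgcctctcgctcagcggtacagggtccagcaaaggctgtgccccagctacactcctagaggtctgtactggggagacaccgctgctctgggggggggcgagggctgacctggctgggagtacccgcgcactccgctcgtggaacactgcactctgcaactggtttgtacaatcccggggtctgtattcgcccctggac
The windows of Tet2, Tet3 and Tdg hold none of the 4 motifs searched, and that of Tet2 has 57 CG pairs, more than 99.8% of all windows.

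Per kilobase of annotated exon, the order of levels changed. Untreated, Tet1 (55.3 to 65.5 CPM per kb) and Dnmt3l (49.6 to 59.8) were highest and overlapped. Uhrf1 (32.8 to 38.5) and Dnmt1 (28.5 to 31.4) followed, then Dnmt3b (16.0 to 16.4) and Tdg (13.4 to 15.0). Tet2 (4.46 to 5.32), Dnmt3a (3.64 to 3.88) and Tet3 (2.81 to 3.10) were lowest, and neighbours below Dnmt3l did not overlap.

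After 4OHT the 2 maintenance genes stood at the top by the same measure, with Uhrf1 at 45.6 to 52.6 and Dnmt1 at 39.6 to 45.4 CPM per kb. Dnmt3l at 32.2 to 41.3 overlapped Dnmt1. Tet1 (12.8 to 20.9), Dnmt3a (12.9 to 16.5) and Tdg (12.1 to 14.01) overlapped one another, above Dnmt3b (7.89 to 8.96). Tet3 (4.56 to 6.88) and Tet2 (3.81 to 5.01) were lowest and overlapped. By gene span in place of exons Tdg moved above Dnmt3b in untreated cells and above Tet1 and Dnmt3a after 4OHT. Tet2 and Tet3 still overlapped after 4OHT, with Tet3 the higher of them in clone c.

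Among the 3 TET genes, Tet1 made up 68.6, 64.5 and 54.6% of the CPM per exon kilobase in 4OHT-treated clones a, b and c, against 89.5, 89.3 and 87.2% in the untreated clones. The TET sum was 30.4, 27.0 and 23.5 CPM per kb after 4OHT and 73.2, 70.8 and 63.4 untreated. Among the 3 catalytic DNMT genes, Dnmt3a made up 22.8, 21.3 and 23.6% after 4OHT, against 7.89, 7.53 and 7.46% untreated, and Dnmt3b 14.3, 13.01 and 11.4%, against 33.3, 33.5 and 31.2%. Their sum was 62.8, 60.6 and 69.8 CPM per kb after 4OHT and 49.2, 48.4 and 51.2 untreated. In every library most of the DNMT sum was Dnmt1. By gene span, Tet1 made up 62.9, 58.8 and 49.0% of the TET sum after 4OHT, against 86.6, 86.5 and 83.8% untreated. Dnmt3a made up 24.6, 23.0 and 25.4% of the DNMT sum by span after 4OHT, against 8.72, 8.33 and 8.24% untreated. These shares are descriptions of captured RNA and carry no test.

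**Figure D3:**
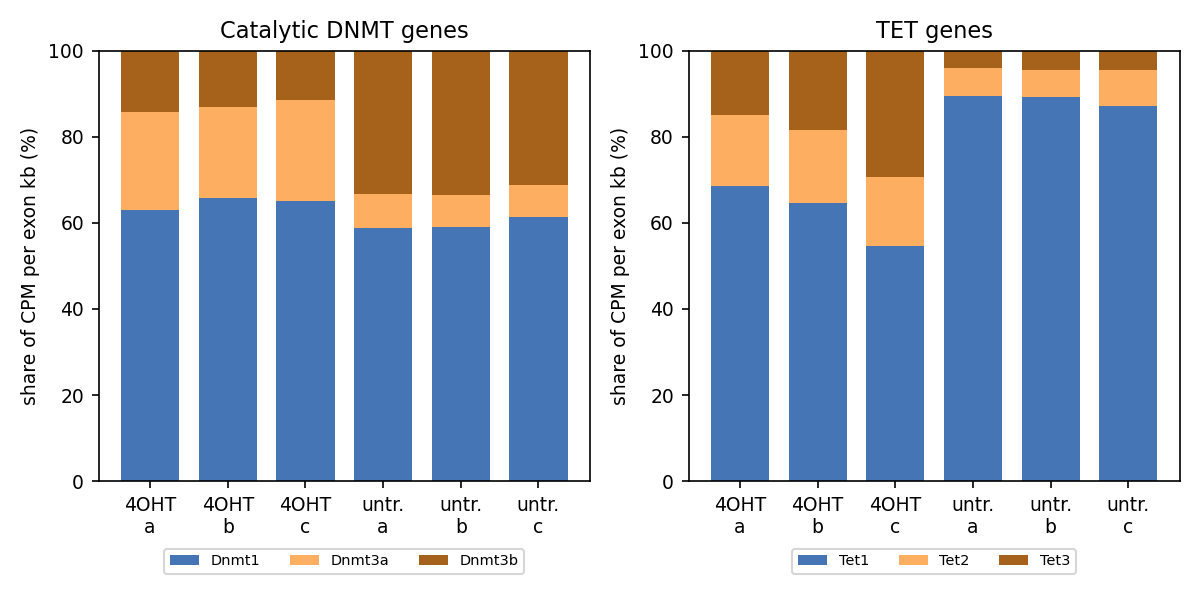
Share in percent of each gene in the summed CPM per exon kilobase of its family, by library, 4OHT left and untreated right. Dnmt3a is 21.3 to 23.6% of the DNMT sum after 4OHT and 7.46 to 7.89% untreated, and Tet1 is 54.6 to 68.6% of the TET sum after 4OHT and 87.2 to 89.5% untreated.

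Within single clones the responses had 1 sign for every gene but Tet2. The log2 difference of Dnmt3a was 1.88, 1.82 and 2.10 in clones a, b and c, and that of Tet1 was -1.65, -1.86 and -2.11. Tet3 gave 0.65, 0.68 and 1.29, and Tet2 0.06, 0.04 and -0.48. Dnmt3l gave -0.30, -0.62 and -0.64, with clone a much nearer 0 than the others. For the first 4 of these genes, and by a small margin for Dnmt1 and Dnmt3l, clone c was farthest from 0, which was not tested, since treatment by clone has 1 library for each. Without clone c, Dnmt3a was at 1.83 ± 0.07, Tet1 at -1.77 ± 0.06 and Tet2 at 0.02 ± 0.07, and the calls of all 9 genes were the same as with it.

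**Figure D4:**
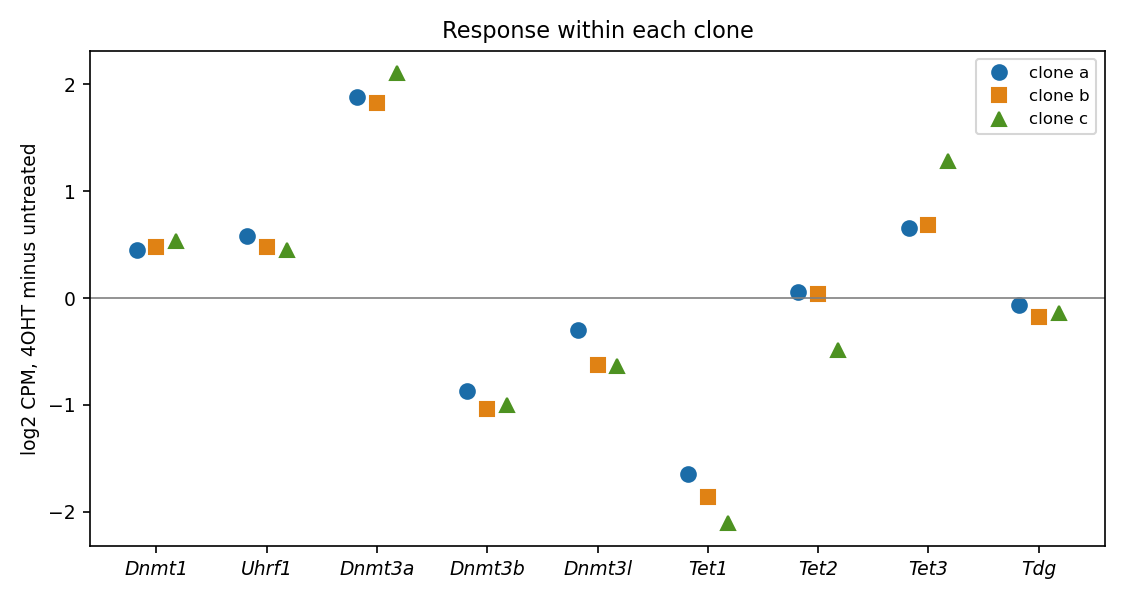
Log2 CPM after 4OHT minus log2 CPM untreated in each clone, by gene. All 3 clones share a sign for every gene but Tet2, and clone c is farthest from 0 for Dnmt3a, Tet1, Tet2 and Tet3, and narrowly for Dnmt1 and Dnmt3l.

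Levels also differed between clones apart from treatment. Testing the clone terms together, with treatment in the fit, called 3 of the 9 genes, against 12.6% of all genes tested (edgeR, adjusted p below 0.05). Tet1 was 0.44 lower on the log2 scale in clone c than in clone a (adjusted p = 0.0015), and Uhrf1 was 0.16 higher (adjusted p = 0.026). Dnmt3l differed at adjusted p = 0.048. Tet1 was called under each of 4 library scalings. Uhrf1 was not called when scaled to the 13 high-count loci (adjusted p = 0.90), and Dnmt3l neither there (0.52) nor by library size (0.053). Scaling by DESeq2 size factors added Dnmt3a (adjusted p = 0.046), and the 13 loci added Tdg (0.042).

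The direction of the 7 called genes held under the 3 scalings plotted here. Dnmt3a was at 1.75 by library size and 1.63 by the 13 high-count loci, Tet3 at 0.69 and 0.57, and Dnmt3l at -0.71 and -0.81. Dnmt3b was at -1.17 and -1.28, and Tet1 at -2.05 and -2.16. Those 13 loci held 17.7 to 19.4% of counts after 4OHT, against 15.5 to 20% untreated, and the groups overlapped.

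**Figure D5:**
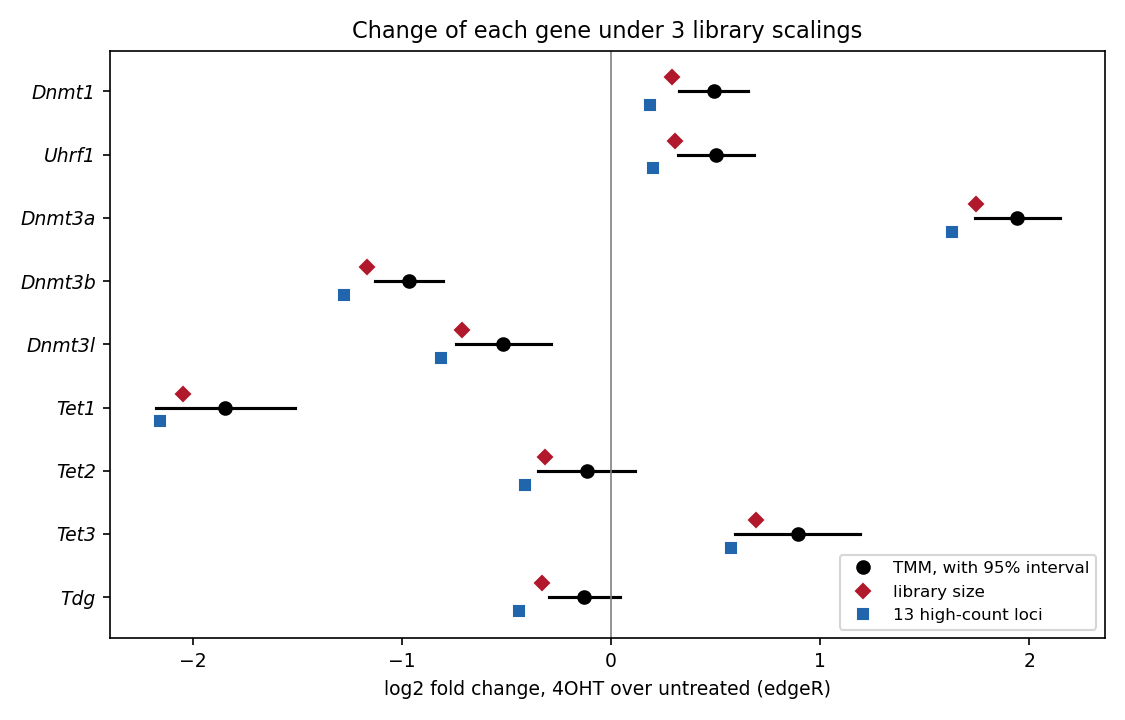
Log2 fold change (4OHT over untreated) of each gene with libraries scaled by TMM (black, with its 95% interval), by library size (red) and to the 13 loci with the highest counts (blue). Dnmt3a, Dnmt3b, Dnmt3l, Tet1 and Tet3 stay well away from 0 under all 3 scalings. Dnmt1 and Uhrf1 lie nearer 0 by the 13 loci (0.18 and 0.20) than by TMM (0.49 and 0.50). The TMM intervals of Tet2 and Tdg include 0.

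The genes whose pattern over the 6 libraries was most like that of Dnmt3a were Tlcd2, Mks1 and Coq10b, with log2 fold changes of 1.84, 2.11 and 2.06. Likeness is the Euclidean distance between centred log2 CPM, 0.21, 0.22 and 0.22 here against a median of 2.29 over 8032 genes. For Tet1 they were Creb3l2, Irak3 and Gli2, with log2 fold changes of -1.88, -1.88 and -1.80 and distances of 0.08, 0.14 and 0.24, against a median of 2.47. Gli2 is a transcription factor of Hedgehog signalling, and Creb3l2 a membrane-bound transcription factor.

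Other genes of the pathway were followed in 5 lists, whose counts are to be read against 28.5% higher and 28.6% lower among all genes. By library size 2408 genes were higher and 5681 lower of all 13,869, and scaled to the 13 loci 1379 and 5546. Of 8 partners of maintenance methylation, 4 were higher and 3 lower; their median was 0.18 on the log2 scale, that of all genes -0.00. Pcna, the replication clamp that binds DNMT1, rose to 205 ± 12.2 CPM after 4OHT, against 124 ± 12.1 CPM untreated (0.73 ± 0.08). Hells, a chromatin remodeller needed for normal methylation, rose by 0.35 ± 0.06. Cdca7l, a relative of the HELLS partner Cdca7, fell to 6.95 ± 0.626 CPM after 4OHT, against 23.6 ± 0.815 CPM untreated (-1.76 ± 0.12). By library size, and by the 13 loci, 1 was higher and 3 lower (median -0.02 and -0.12), and without both libraries of clone b 1 was lower.

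Among 13 tested regulators of de novo methylation and imprints, 6 were higher and 6 lower (median -0.18), or 2 and 7 by library size (median -0.38) and 0 and 7 by the 13 loci (median -0.49). Prdm14, a repressor of de novo methyltransferase genes in embryonic stem cells, fell to 6.51 ± 1.98 CPM after 4OHT, against 27.3 ± 4.36 CPM untreated (-2.05 ± 0.20). Kdm2b, which binds unmethylated CG-rich DNA, fell by 0.90 ± 0.07 on the log2 scale. Setd2, which sets a histone mark that DNMT3 proteins read, rose by 0.37 ± 0.06. Without the treated library of clone b 3 of these genes were lower, and without both libraries of clone b 3 were higher and 3 lower. Dnmt3c had 7 counts over the 4OHT and 11 over the untreated libraries and was not tested.

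Of 19 tested partners of TET and TDG and genes of base excision repair, 4 were higher and 8 lower (median -0.19), or 4 and 10 by library size (median -0.39) and 2 and 10 by the 13 loci (median -0.49). With clone as a replicate block 8 were higher and 8 lower, as were 4725 and 4623 of all genes. Cxxc4, a partner of TET2 that lowers its protein, rose to 10.2 ± 0.637 CPM after 4OHT, against 1.32 ± 0.169 CPM untreated (2.95 ± 0.19). Idh1 and Idh2, whose enzymes make the cofactor of TET proteins, both fell. Idh1 had 25.4 ± 2.05 CPM after 4OHT and 51.0 ± 2.11 CPM untreated, and Idh2 13.9 ± 3.07 CPM after 4OHT and 44.8 ± 7.57 CPM untreated.

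Of 15 genes that supply methyl groups, 7 were higher and 6 lower (median 0.16), or 4 and 6 by library size (median -0.04) and 2 and 6 by the 13 loci (median -0.16). Ahcyl1, a relative of the enzyme that clears the product of methyl transfer, rose by 0.82 ± 0.07, and Shmt1, which feeds the folate cycle, by 0.40 ± 0.06. Mthfd1, a folate cycle enzyme, fell to 118 ± 7.04 CPM after 4OHT, against 241 ± 10.7 CPM untreated (-1.03 ± 0.07). Of 10 readers of methylated DNA, 2 were higher and 2 lower (median 0.06), or 1 and 5 by library size (median -0.14) and 0 and 4 by the 13 loci (median -0.25). The 4 called readers of 10 compare with 57.1% of all genes. Mbd6 rose by 0.59 ± 0.08 and Mbd1 by 0.28 ± 0.07, and Zbtb38, a zinc-finger reader, fell by 0.46 ± 0.09 on the log2 scale. Mbd4, a glycosylase with a methyl-CpG-binding domain, was the other gene that fell (-0.28 ± 0.09). By DESeq2, and without any 1 library other than the untreated one of clone c, 1 reader was lower.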

How the data were processed

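The data are 6 libraries of captured newly made RNA. Per the labels' protocols, DNase-treated total RNA was taken, RNA carrying ethynyl uridine was captured by click chemistry, and the NEB Next Ultra 2 kit made the libraries. STAR, featureCounts and mm10 appear in the submitters' processing notes. Their versions, the use of strand and whether exons or gene bodies were counted are not given in the sources. Values deposited by the authors are raw counts per gene symbol. Columns were tied to samples by clone letter and time.

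The test was that of edgeR 4.0.16 (R 4.3.3): filterByExpr (minimum count 10, minimum total 15), TMM, glmQLFit and glmQLFTest, 3 libraries against 3 with no clone term, Benjamini-Hochberg over all 13,869 genes, called below 0.05. The SE is the log2 fold change divided by the square root of F, and a prior count of 2 entered log2 CPM. A change in all transcription would be hidden by TMM. Replicates are clones, nothing says that they were treated on separate days, and p-values cover only the spread among these 6 libraries. Same-letter libraries come from the same clone, and their deviations from group means correlated at 0.282, 0.165 and 0.357. The fit was also run on simulated counts, drawn without clone differences and with changes in few genes. Such a run does not bear on the pairing of clones or on the choice of scaling. Positions and lengths are from GENCODE M21 (GRCm38, the assembly of mm10), promoters from RefSeq. Floors cover counting error only.

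The genes, lists and motifs were chosen with earlier results of these data known. Named genes are the 9, the 3 with the smallest adjusted p in each list and the 3 nearest in pattern to the largest riser and faller; others are named where a count calls for it. Alternatives were other scalings, filters, DESeq2 1.42.0, limma-voom (limma 3.58.1), the clone block, a stricter threshold and libraries left out; the scaling to 13 loci was chosen after seeing the data.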

Additional observations from a re-analysis of the deposited data

How the results depend on the processing

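Over 18 alternatives for each of the 9 genes, 154 of 162 log2 fold changes kept their direction and their side of the threshold. Scaled to the 13 high-count loci, Dnmt1 (0.18) and Uhrf1 (0.20) were no longer called and Tet2 (-0.41) and Tdg (-0.44) were; that gave 2 higher and 5 lower of the 9 genes, and 1379 higher genes in all against 3953. By library size Tet2 (-0.32) and Tdg (-0.33) were called, which gave 5 lower of the 9, and 2408 genes were higher in all; of all calls 29.8% were then higher and by the 13 loci 19.9%, against 49.9%. With clone as a replicate block Tdg was called at -0.13 and no other call among the 9 changed. With both libraries of a clone left out, Tet2 ranged between -0.22 (without clone a) and 0.024 (without clone c, a change of sign), not called in either. The cause of these changes was not tested beyond the scaling itself. Of 180 counts of the 5 lists, 153 stayed within 1.5 times. All 9 genes lay above the floor of 3 counts; how far counting error limits the small changes was not tested.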
